A study of Mus musculus with 6 samples.

Results

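The core genes of mitochondrial apoptosis were read in rhombomere 4 of E10.5 mouse embryos, the hindbrain segment whose identity the transcription factor Hoxb1 specifies. They are the pro-survival genes Bcl2, Bcl2l1 and Mcl1 and the pro-death genes Bak1, Bcl2l11, Casp9 and Apaf1, taken as all probe sets (groups of short array probes read as 1 value) that the platform annotation gives to a single gene of a list of 9. That gave 22 of the 22690 deposited probe sets and 7 of the 9 listed genes. Bax and Trp53 are not analysed here. The comparison set 3 arrays of Hoxb1 mutant embryos against 3 arrays of wild-type embryos, all at E10.5, each array from a pool of segments of several embryos. The submitters state that the pools were independent biological replicates. The labels used here name neither the mutant allele nor a strain, and they state that arch tissue around the segment was included, so the values are averages over neural and other cells.

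Cells of the mitochondrial pathway die when the outer mitochondrial membrane is opened by Bax and Bak, and the pro-survival proteins Bcl2, Bcl-xL (from Bcl2l1) and Mcl1 hold these effectors and their activators in check. BH3-only proteins such as Bim (from Bcl2l11) bind the pro-survival proteins and tip that balance towards death. Released cytochrome c then drives Apaf1 to assemble the apoptosome, which activates caspase-9 and, through it, the executioner caspases. In the embryonic hindbrain this machinery removes neural crest cells and surplus neurons, and much of its control lies in protein binding and cleavage, which an RNA array does not read.

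The promoter sequences of 3 members are shown because Hoxb1 acts with Pbx proteins on DNA, and the windows show what letters stand before the starts of genes whose RNA is compared below. Each is the 250 bases before a RefSeq transcript start on GRCm38.p6, written 5′ to 3′ on the gene's strand, with motif letters in capitals. A Bcl2l11 window (chr2:128125788-128126037, plus strand) holds the forkhead motif GTAAACA, which FoxO factors bind. The other Bcl2l11 window, not shown, holds none of the motifs searched. A Bcl2l1 window (chr2:152830718-152830967, minus strand) holds an E2F motif on the opposite strand. The other Bcl2l1 windows, not shown, hold none of the motifs searched. The Mcl1 window (chr3:95658471-95658720, plus strand) holds none of the motifs searched.
Bcl2l11: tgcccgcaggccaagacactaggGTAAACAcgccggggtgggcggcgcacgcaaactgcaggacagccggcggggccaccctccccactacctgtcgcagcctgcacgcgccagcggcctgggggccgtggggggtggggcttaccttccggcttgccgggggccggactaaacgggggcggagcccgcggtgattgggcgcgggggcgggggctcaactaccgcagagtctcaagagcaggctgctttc
Bcl2l1: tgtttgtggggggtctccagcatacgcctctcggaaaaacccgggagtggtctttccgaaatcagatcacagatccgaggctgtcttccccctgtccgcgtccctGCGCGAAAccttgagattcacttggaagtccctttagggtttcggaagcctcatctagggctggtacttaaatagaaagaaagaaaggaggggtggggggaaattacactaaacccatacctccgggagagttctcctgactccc
Mcl1: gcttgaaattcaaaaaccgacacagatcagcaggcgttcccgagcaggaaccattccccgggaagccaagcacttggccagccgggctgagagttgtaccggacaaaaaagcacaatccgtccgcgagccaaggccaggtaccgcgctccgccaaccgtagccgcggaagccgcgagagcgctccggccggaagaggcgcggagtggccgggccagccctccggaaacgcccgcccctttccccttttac
The 7 genes have 10 such windows in the table. The Hox-Pbx motif TGATNNAT, searched on both strands, was in 0 of the 10, against 7.69% of all 32817 windows. GTAAACA was in 1 of the 10, against 3.16% of all windows, and TTTCGCGC or TTTGGCGC, the E2F motif, was in 1, against 0.655%. The p53 half-site was in 0 of the 10, against 7.12%. The 10 windows had 47.6% to 75.6% G or C bases, against a median of 52.4% over all windows. The part of base makeup in these shares was not tested. The motif letters found do not overlap each other. No match says only that these letters are not in these windows.

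Hoxb1 itself, with its only probe set, gave 60.8, 35.3 and 50.03 in mutants and 341, 378 and 588 in wild type. Every mutant array lay below 61.5, the 95th percentile of the bacterial control probe sets, which have no mouse target and serve here as background. Hoxb1 was at least 6.88-fold lower in mutants, with a limma adjusted p of 0.0695 that missed the threshold of 0.05, which 0% of all 22626 features in the fit passed. Unadjusted, 5.76% of them had a p under 0.05. The arrays had median intensities of 187 to 214. The 18S ribosomal control signal set wild-type replicates 2 and 3 apart, at a mean log2 signal of 12.1 and 11.3, against 6.36 to 7.03 on the remaining 4 arrays. Of 9 measured markers of the neural tube, 9 of arch mesenchyme and crest, 5 of primitive erythroid cells, 6 of endothelium and 7 of macrophages, all had signal above background on at least 1 array.

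No difference of an apoptosis core gene between Hoxb1 mutant and wild-type rhombomere 4 passed limma's test across all probe sets. In 14 of the 22 probe sets the difference was smaller than its standard error. That was not counted over all probe sets, so the count does not set the members apart. Of the 22 probe sets, 9 had a higher and 13 a lower mean in mutants, and 0 passed, with limma adjusted p of 0.833 to 0.99985. The median log2 difference, taken as mutant minus wild type after the transform log2(intensity + 16), was -0.013 over the 22 and -0.021 over all probe sets. The differences of the members ran from -0.49, in a probe set below background on all mutant arrays, to 0.20. Of the 22, 19 lay within 0.25 of 0, and the interquartile range over all probe sets was -0.17 to 0.11. An unadjusted limma p under 0.05 was reached by 1 member probe set, which is 4.55%. The groups did not overlap in 4 of the 22, or 18.2%, against 12% of all probe sets. Of these 4, 3 belong to Mcl1 and differ in direction among themselves.

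**Figure D1:**
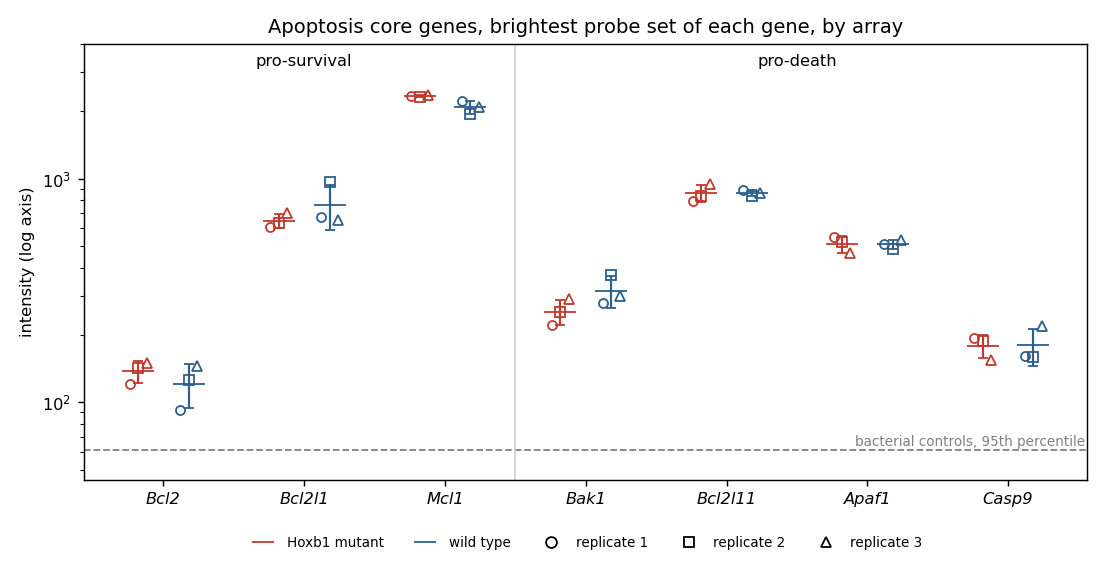
Intensity (log axis) of the brightest probe set of each of the 7 genes on each array, Hoxb1 mutant left of wild type, with symbols for replicates and bars for mean ± SD (n = 3 each). The groups overlap in every gene except Mcl1, where all 3 mutant arrays lie between 2324 and 2361, above the wild-type arrays at 1951 to 2226.

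Among the pro-survival genes, Bcl2, the founding member of the family, was read by a single probe set. It gave 120, 142 and 149.6 in mutants and 92.4, 126 and 145 in wild type. The groups overlapped, with wild-type replicate 1 the lowest of all arrays. Bcl2 averaged 137 ± 15.4 in mutants and 121 ± 26.6 in wild type (SD, n = 3 each), a log2 difference of 0.18 (SE 0.18, 95% interval -0.25 to 0.60). The limma adjusted p was 0.888. Without wild-type replicate 1 the log2 difference of Bcl2 was 0.015, and without wild-type replicates 2 and 3, which leaves 1 wild-type array assumed to vary like the mutants, it was 0.495 (limma adjusted p = 0.999). The value moved with the wild-type arrays that were kept.

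Bcl2l1, which encodes Bcl-xL, a survival factor of postmitotic neurons and erythroid cells, had 4 probe sets, and all 4 had a lower mean in mutants. The brightest, 1420888_at, gave 608, 636 and 702 in mutants and 673, 966 and 651 in wild type. Wild-type replicate 2 stood above the other arrays, and the rest overlapped. The log2 difference was -0.21 (SE 0.18, 95% interval -0.63 to 0.21; limma adjusted p = 0.874), and without wild-type replicate 2 it was -0.031. With the 18S signal as a covariate it was -0.035. That fit compares mutants mainly with wild-type replicate 1, the only wild-type array of low 18S signal. The part of the 18S signal in this difference was not tested.

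The dimmest Bcl2l1 probe set, 1426050_at, was the member probe set with the smallest p. It gave 37.5, 41.3 and 25.8 in mutants and 51.3, 65.2 and 49.4 in wild type. The groups did not overlap, but all mutant arrays and 2 of the wild-type arrays lay below the bacterial 95th percentile of 61.5. Its log2 difference was -0.49 (SE 0.16, 95% interval -0.88 to -0.10), with an unadjusted limma p of 0.0207 and an adjusted p of 0.833. With values below background raised to it, this probe set was 1.02-fold lower in mutants. That is no minimum, because 2 wild-type arrays were raised as well. The remaining Bcl2l1 probe sets, 1420887_a_at and 1426191_a_at, whose suffix marks probes shared by transcripts of 1 gene, gave log2 differences of -0.31 (SE 0.25) and -0.21 (SE 0.33), both with overlapping groups. In 1420887_a_at the mutant arrays spread most, at 292, 138 and 191, against 253, 227 and 268 in wild type.

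Mcl1, a short-lived survival protein that neural progenitors need, was read by 6 probe sets, and they disagreed on direction. The brightest, 1437527_x_at, gave 2339, 2324 and 2361 in mutants and 2226, 1951 and 2094 in wild type. All mutant arrays were above all wild-type arrays, and the log2 difference was 0.16 (SE 0.11, 95% interval -0.093 to 0.42; limma adjusted p = 0.85). Probe set 1448503_at gave 2141, 2079 and 2215 in mutants and 2174, 2376 and 1959 in wild type. Here the groups overlapped and the log2 difference was -0.012 (SE 0.12, 95% interval -0.29 to 0.27).

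Probe set 1456243_x_at of Mcl1 also lay higher in every mutant array, at 1558, 1677 and 1707 in mutants against 1494, 1275 and 1534 in wild type, a log2 difference of 0.20 (SE 0.12). Probe set 1416881_at lay the other way, at 910.4, 1043 and 966 in mutants against 1083, 1147 and 1135 in wild type. Its log2 difference was -0.20 (SE 0.11, 95% interval -0.47 to 0.059; limma adjusted p = 0.833). The remaining 1416880_at and 1456381_x_at gave log2 differences of 0.085 (SE 0.17) and 0.14 (SE 0.12), with overlapping groups. The 3 probe sets with the suffix _x_at, which marks probes that can also match other transcripts, were the ones with differences of 0.14 to 0.20. Averaged over the 6 probe sets, the Mcl1 difference was 0.062.

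**Figure D2:**
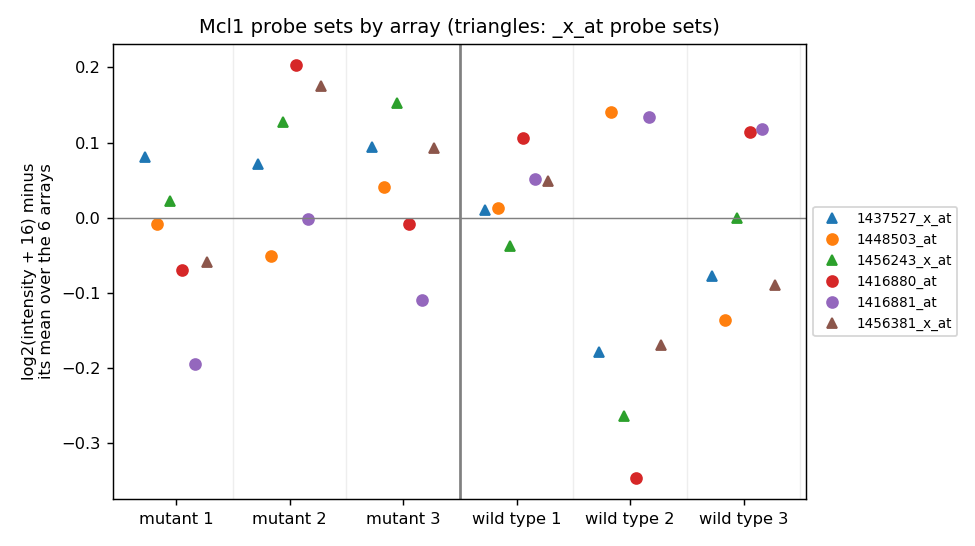
Each Mcl1 probe set on each array, as log2(intensity + 16) minus its mean over the 6 arrays, with Hoxb1 mutant arrays left of the grey line and wild-type arrays right of it. On wild-type replicate 2 the probe sets split, with 4 at -0.17 to -0.35 and 2 at 0.13 and 0.14.

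Wild-type replicate 2, 1 of the arrays with high 18S signal, was the lowest array in 4 of the 6 Mcl1 probe sets and the highest in the other two. Without it, 1437527_x_at gave a log2 difference of 0.12 and 1456243_x_at one of 0.12, while 1416881_at gave -0.19. With the 18S signal as a covariate, 1437527_x_at gave 0.073, 1456243_x_at gave 0.12 and 1416881_at gave -0.17. That fit leans on wild-type replicate 1, the only wild-type array of low 18S signal. The part of the 18S signal in the Mcl1 differences was not tested.

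Among the pro-death genes, Bak1 encodes an effector that opens the mitochondrial membrane and can act in place of Bax. Its brighter probe set, 1418991_at, gave 221, 253 and 288 in mutants and 276, 372 and 297 in wild type. Mutant replicate 3 lay above wild-type replicate 1, so the groups overlapped. Bak1 averaged 254 ± 33.7 in mutants and 315 ± 50.3 in wild type (SD, n = 3 each), a log2 difference of -0.29 (SE 0.16, 95% interval -0.67 to 0.088; limma adjusted p = 0.833). This was the largest difference of the 4 pro-death genes by their brightest probe sets, and without wild-type replicate 2 it was -0.17. With the 18S signal as a covariate, a fit that leans on wild-type replicate 1, it was -0.13. The part of the 18S signal here was not tested.

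The other Bak1 probe set, 1425716_s_at, whose suffix marks probes that can match several genes, gave 104, 24.5 and 92.4 in mutants and 40.4, 109 and 60.7 in wild type. Only 3 of the 6 arrays were above the bacterial 95th percentile. Its log2 difference of -0.013 had an SE of 0.48 and a 95% interval of -1.15 to 1.12, the widest interval of the 22.

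Bcl2l11 encodes Bim, the BH3-only protein through which loss of trophic support kills neurons. It had 5 probe sets, all above background on all 6 arrays. The brightest, 1435448_at, gave 797, 840 and 946 in mutants and 891, 832 and 866 in wild type. The wild-type values fell inside the mutant range. The log2 difference was -0.0057 (SE 0.12), with a 95% interval of -0.28 to 0.27, which on the fold scale is 0.82 to 1.21. The 5 probe sets ran from -0.058 to 0.075, 2 higher and 3 lower, and the groups overlapped in each.

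Apaf1, the scaffold of the apoptosome, gave 551, 519.8 and 464 in mutants and 510.4, 487 and 533 in wild type with its brighter probe set, 1452870_at. Mutant replicate 1 was the highest array and mutant replicate 3 the lowest, with the wild-type arrays between them. The log2 difference of Apaf1 was 0.0011 (SE 0.12, 95% interval -0.28 to 0.28), and the dimmer 1450223_at gave -0.088 (SE 0.16). Both were above background on every array.

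Casp9, the initiator caspase that the apoptosome activates, gave 193, 188 and 155 in mutants and 161, 159 and 218 in wild type with 1426125_a_at. The highest array was wild-type replicate 3 and the lowest mutant replicate 3. The log2 difference was 0.00054 (SE 0.16, 95% interval -0.38 to 0.39), and 1437537_at gave -0.042 (SE 0.16). On the fold scale the interval of 1426125_a_at runs from 0.77 to 1.31.

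**Figure D3:**
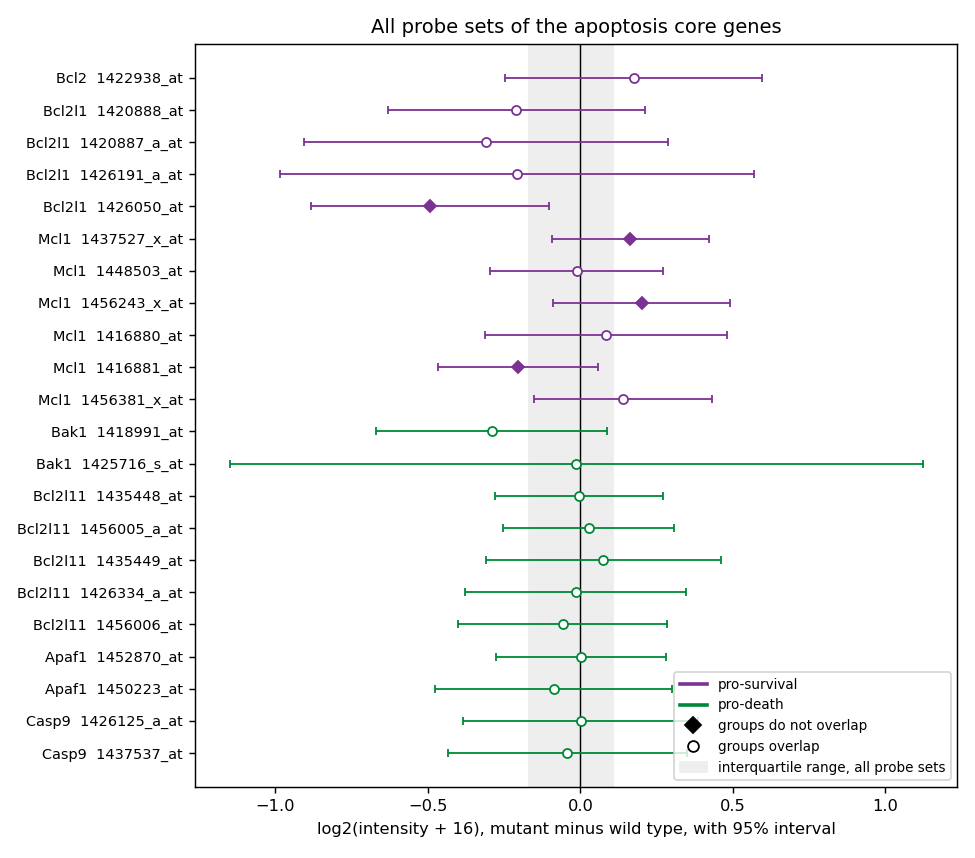
Log2 difference, mutant minus wild type, with its 95% interval for each of the 22 probe sets (purple, pro-survival; green, pro-death), filled diamonds where the groups do not overlap. The interval holds 0 in 21 of 22, and the grey band is the interquartile range over all probe sets, -0.17 to 0.11.

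Pro-survival and pro-death members were set side by side as medians over genes, with the brightest probe set of each gene and no test. The median log2 difference was 0.16 for the 3 pro-survival genes, the value of Mcl1 1437527_x_at, and -0.0026 for the 4 pro-death genes, against -0.023 over all 12393 genes. When the probe sets of a gene were averaged instead, the pro-survival median was 0.062. It was 0.015 without wild-type replicate 1, and 0.073 with the 18S signal as a covariate, a fit that leans on that same array. The pro-death minus pro-survival balance of each array, as medians of deviations from the 6-array mean, was 0.079, -0.075 and -0.14 in mutants and 0.039, -0.0396 and 0.15 in wild type. The groups overlapped, with mutant replicate 1 between wild-type replicates 1 and 3.

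The rest of the pathway was read through 59 measured genes of 68 in 7 lists, each gene by its brightest probe set. Adjusted over all probe sets, 0 of the 59 passed in either direction in limma. An unadjusted p under 0.05 was reached by 0, against 5.46% of all 12393 genes. The groups did not overlap in Bbc3, Casp8, Aifm1, Sesn2 and Fas, at most 1 gene in each list. Fas was below background on all arrays. Over all probe sets, counted by probe set and not by gene, the share was 12%. Where no array of a group exceeded background, values below background were raised to it before the gene entered its list's median. The difference is then 0 where neither group exceeded background. The list medians then ran from -0.075 to 0.12. Fewer cells of a type and less RNA per cell cannot be told apart in these pooled samples.

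In the Bcl2 family outside the members, the measured pro-survival genes were Bcl2l10 and Bcl2l2. Bcl2l10 exceeded background on 1 wild-type array and on 0 mutant arrays, and its groups overlapped (limma adjusted p = 0.852). Bcl2l2 gave a log2 difference of -0.059 (SE 0.13). Of the 10 pro-death genes with signal above background in both groups, 3 were higher and 7 lower, and the median of the 11 measured was -0.027. Bbc3, which encodes the p53-inducible BH3-only protein Puma, gave 161 ± 6.74 in mutants and 196 ± 21.2 in wild type (SD, n = 3 each), a log2 difference of -0.26 (SE 0.12) with groups that did not overlap. Bok, a Bax-like gene, gave -0.33 (SE 0.24). Bnip3, a hypoxia-responsive mitochondrial gene, gave 0.21 (SE 0.15). Pmaip1, which encodes Noxa, the BH3-only antagonist of Mcl1, did not exceed background on any array.

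Caspases other than Casp9 were measured for 7 of 9 listed genes. The inflammatory and epidermal caspase genes Casp1, Casp4, Casp12 and Casp14 were below background on all arrays and have no direction. The other 3, Casp2, Casp6 and Casp8, had higher means in mutants. Casp8, the initiator caspase of death receptors, gave 315 ± 24.9 in mutants and 272 ± 16.3 in wild type (SD, n = 3 each), a log2 difference of 0.20 (SE 0.12) with groups that did not overlap. Casp6, an executioner caspase, gave 0.13 (SE 0.11). Of 7 caspase inhibitor genes, Naip2 was below background on all arrays, and of the other 6, 5 were higher and 1 lower. The median of the 7 was 0.019. Birc6 and Birc3, members of the inhibitor of apoptosis family, gave 0.14 (SE 0.16) and 0.16 (SE 0.21), and Cflar, which encodes the caspase-8 inhibitor FLIP, gave -0.12 (SE 0.17).

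Among genes of mitochondrial release and DNA cleavage, 6 of 8 were higher in mutants, with a median of 0.12. Aifm1, which encodes apoptosis-inducing factor, a mitochondrial oxidoreductase, gave a log2 difference of 0.21 (SE 0.11) with groups that did not overlap. Htra2, a mitochondrial protease that antagonises caspase inhibitors, gave 0.25 (SE 0.13). Endog, a mitochondrial nuclease, gave -0.397 (SE 0.30), and Septin4, which was above background on 4 arrays, gave -0.059 (SE 0.21).

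Regulators and targets of p53 were measured for all 17 genes listed, each above background on all 6 arrays. They split into 7 higher and 10 lower, with a median of -0.0255. Sesn2, a stress-induced p53 target, gave 140 ± 3.97 in mutants and 167 ± 6.86 in wild type (SD, n = 3 each), a log2 difference of -0.23 (SE 0.10), and its groups did not overlap. Gtse1, a mitotic gene that restrains p53, gave -0.24 (SE 0.14). Phlda3, a p53 target that inhibits Akt, and Trp53bp1, a DNA damage mediator, gave 0.24 (SE 0.17) and 0.21 (SE 0.18).

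Of the death receptor pathway, 7 of 9 genes were measured, and the receptor gene Fas and the ligand gene Tnfsf10 were below background on all arrays. Of the other 5, 3 were higher and 2 lower. The adaptor genes Tradd and Fadd gave 0.16 (SE 0.15) and -0.086 (SE 0.14). The receptor genes Tnfrsf1a and Tnfrsf10b gave 0.12 (SE 0.13) and -0.37 (SE 0.30). Tnfrsf10b was above background on only 1 mutant and 2 wild-type arrays.

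**Figure D4:**
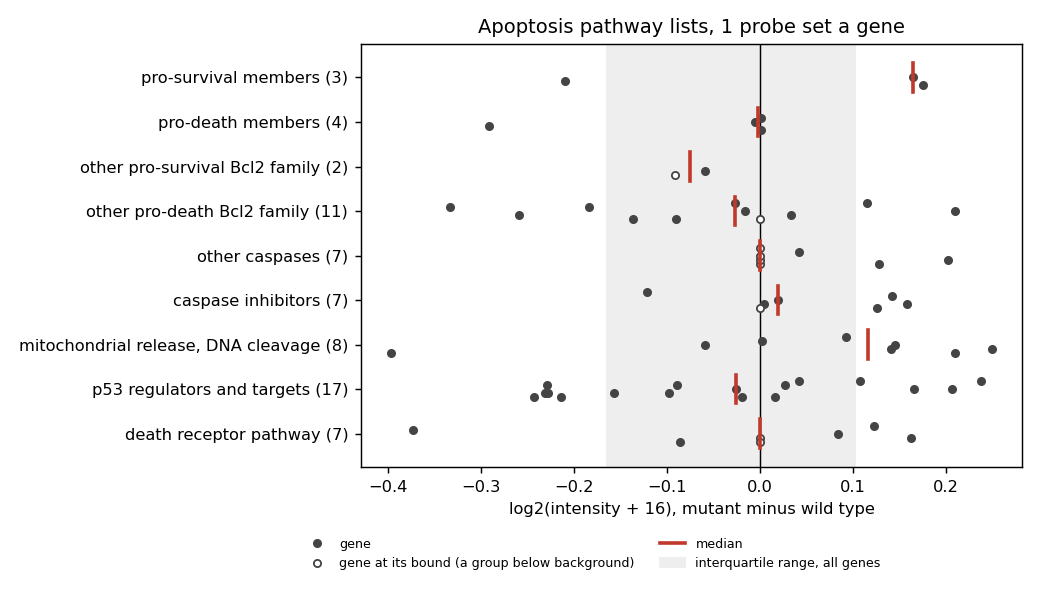
Log2 difference, mutant minus wild type, of each measured gene in the members and 7 other pathway lists (number of genes in brackets), with the list median as a red bar. Open points are genes for which no array of a group exceeded background, set with values below background raised to it. The medians of the 7 lists run from -0.075 to 0.12, and the grey band is the interquartile range over all genes, -0.16 to 0.10.

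Markers of the cells in the dissected tissue had the following levels on the same arrays. Over all 12393 genes the median log2 difference was -0.023, with an interquartile range of -0.16 to 0.10. Of the neural tube markers 8 of 9 were lower in mutants, with a median log2 difference of -0.17 and a summed intensity of 8483 to 9900 in mutants and 9698 to 11385 in wild type. Of the arch mesenchyme and crest markers 8 of 9 were lower, with a median of -0.28. Their sums were 10176 to 10970 in mutants and 11327 to 12635 in wild type, and did not overlap. Col3a1 alone averaged 4743 of the sum in mutants and 5045 in wild type, with a log2 difference of -0.090. The differences of these 9 markers ran from -0.44 to 0.013. An unadjusted limma p under 0.05 was reached by 1 of the 9, Sox10, against 5.46% of all 12393 genes. Sox10 had a log2 difference of -0.40 (limma adjusted p = 0.833). Of the primitive erythroid markers 4 of 5 were higher, with a median of 0.13 and sums of 36871 to 40959 in mutants and 33423 to 38724 in wild type. Endothelial and macrophage markers had medians of -0.068 and -0.052. Their sums were 1703 to 1958 and 994 to 1530 in mutants and 1716 to 1944 and 1324 to 1387 in wild type. Of the 7 macrophage markers, 5 were above background on all 6 arrays, Csf1r among them. Ptprc was above it on 1 mutant and 3 wild-type arrays, and Aif1 on 5 of the 6 arrays. The part of cell makeup in the members' values was not tested.

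The genes most like the members across arrays were sought among 15776 probe sets brighter than background, as a description over 6 arrays that share 1 scaling. For Mcl1 1437527_x_at the most alike were Cox7a2l (Pearson r = 0.994) and Ccdc136 (r = 0.986), and 41 probe sets had r over 0.95. For Bak1 1418991_at they were Cnot9 (r = 0.989) and Lhpp (r = 0.988), with 46 over 0.95.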

How the data were processed

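Total RNA of 3 Hoxb1 mutant and 3 wild-type pools was hybridised to Affymetrix mouse 430A arrays, per the labels. The deposited table gives, for every array, a linear intensity of each probe set, scaled so that the mean with 2% trimmed at either end was 500.0. The submitters' processing notes name affy, without a version. The background correction and detection calls are named by none of the sources used here.

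The 64 control probe sets were left out and 22626 tested. Of these 20380 name 1 gene, 691 several and 1555 none. For 20351 of them the symbol was brought up to date by Entrez identifier through RefSeq's GRCm38.p6 genes. Background was the 95th percentile, 61.5, of 27 bacterial control probe sets. Where no array of a group exceeded it, values below it were raised to it. The fold is then a lower bound only if every array of the other group exceeded it, as for Hoxb1. Such genes enter list medians with the raised values.

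Groups were compared on log2(intensity + 16), which understates changes of dim probe sets, with limma 3.58.1 in R 4.3.3 (lmFit, eBayes, 2-sided, no covariate, Benjamini-Hochberg over every feature in the fit, threshold 0.05), a step tested on simulated data. Fold values are powers of 2 of these differences. Those with values raised to background instead come from log2(intensity) without the added 16. With 3 arrays a group the median SE was 0.16. Members, lists, alternatives and the rule for named genes were chosen with earlier results of these data known. The rule named all member probe sets, Hoxb1, and up to 2 genes per list and direction of smallest p. Likeness was named for the member of smallest p in each class. Csf1r, Ptprc, Aif1, Col3a1, Sox10 and genes named as below background fall outside the rule and were picked with their values in view.

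Alternatives were quantile normalization, median centring, a filter on dim probe sets, pseudocounts of 1 and 64, a trended and robust eBayes, array weights, a replicate block, the 18S signal as a term of the fit, and leaving out arrays. Sample titles give same-numbered mutant and wild-type arrays matching code numbers, whose meaning the labels used here do not state. Their deviations from the group means correlated at 0.053, -0.017 and 0.045, against -0.075 to 0.042 for arrays of unlike number. With 3 arrays a group these values cannot show whether the pools were paired. The main fit did not pair them.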

Additional observations from a re-analysis of the deposited data

How the results depend on the processing

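Member probe sets called numbered 0 under all 16 alternatives run on them. Over all probe sets, limma called 4 with array weights, 2 with the filter on dim probe sets, 3 with a trended and robust eBayes, 4 with median centring, 3 with quantile normalization and 4 at a threshold of 0.1, and 0 without each array in turn. With the replicate number as a block it called 0. The block cannot change the medians, 0.16 for pro-survival and -0.0026 for pro-death members, because each number holds 1 array of each group. The pro-survival median was 0.073 with the 18S covariate and 0.072 without wild-type replicates 2 and 3. Both settings compare mutants mainly with wild-type replicate 1, because the 18S signal was high only on the other wild-type arrays. The pro-survival median was 0.062 with the probe sets of a gene averaged, and 0.015 to 0.17 without each array in turn. The pro-death median was 0.051 with median centring and -0.053 to 0.015 without each array. Among the 10 member probe sets recomputed, signs turned in 3. Apaf1 1452870_at gave -0.00074 with the 18S covariate, -0.00076 without wild-type replicates 2 and 3, and -0.052 to 0.068 without each array. Bcl2l11 1435448_at gave 0.048 with median centring and -0.074 to 0.047 without each array, and Casp9 1426125_a_at gave -0.00069 with a pseudocount of 64 and -0.073 to 0.14 without each array. Bcl2l1 1426050_at was dropped by the filter on dim probe sets and elsewhere had limma adjusted p of 0.522 or more. Hoxb1 passed 0.05 in 4 alternatives, with limma adjusted p of 0.0136 to 0.0496, and had 0.743 without wild-type replicates 2 and 3. The number of arrays and, for 3 member probe sets near background, the signal limit these values.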

Other observations

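Wild-type replicate 2 was the highest array in 9 of the 22 member probe sets, or 40.9%, against 18.2% of all probe sets, and the lowest in 4. The 9 include the brightest probe sets of Bcl2l1 and Bak1 and 1448503_at of Mcl1. Wild-type replicate 1 was the highest in 0 of the 22, against 13.6% of all probe sets. Mutant replicate 3 was the lowest in 6, or 27.3%, against 22% of all probe sets.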
